A study of Danio rerio with 6 samples.

Results

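Matrix metalloproteinases (MMPs) and their tissue inhibitors (TIMPs) were followed in the injured zebrafish ventricle through 10 gene names: the gelatinases mmp2 and mmp9, the collagenases mmp13a and mmp13b, the membrane-type enzymes mmp14a, mmp14b and mmp15b, and the inhibitors timp2a, timp2b and timp4.2. The names were matched to the symbols of the gene IDs, ignoring case and with or without the paralog letter, and 8 of the 10 names led to 9 of the 14211 IDs measured. The 9 are MMP2, MMP9, mmp13a, and a pair of IDs each for MMP14, MMP15 and TIMP2. The symbols do not say which ID of a pair is the a and which the b paralog, so these IDs are told apart by number, and MMP15 may include mmp15a. The names mmp13b and timp4.2 were not analysed here.

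The samples were ventricle apices of adult zebrafish of the AB strain, all cryoinjured, an injury made by freezing part of the ventricle. RO, a gamma secretase inhibitor, or DMSO alone as the carrier was injected intraperitoneally at 24 h and again at 48 h, and tissue was taken at 72 h after injury. Each library pools the apices of 3 hearts, with DMSO replicates 1, 2 and 3 and RO replicates 2, 3 and 4. Uninjured hearts were not analysed here, so the comparison is between treatments of injured hearts. The dose of RO is not given in the sources used here.

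MMPs are zinc-dependent endopeptidases that are made as inactive proenzymes and together can cut most components of the extracellular matrix. MMP14 sits in the plasma membrane and, bound to TIMP2, captures and activates the proenzyme of MMP2, so that TIMP2 acts both as an inhibitor and as part of the activating complex. MMP9 is made by neutrophils, macrophages and other cells of wounds, and MMP13 cuts fibrillar collagen. Gamma secretase cleaves Notch receptors, among other membrane proteins.

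Values are scaled read counts, which are reads per gene divided by 1 factor per library, and 3306018 to 4463303 reads per library stand behind them. Cardiomyocyte genes, which check the tissue, were abundant in every library: 16 IDs summed to 42426 to 52507. Of all genes, 1.03% passed the test between RO and DMSO (147 genes at an adjusted p below 0.05, limma-trend; 0.647% higher and 0.387% lower in RO), 13.4% had an unadjusted p below 0.05, and 18.7% had groups that did not overlap. None of the 9 MMP and TIMP IDs passed (limma-trend). At an unadjusted p below 0.05 there were 2, MMP9 and MMP14 (ENSDARG00000002235). The edgeR quasi-likelihood test also called 0 of 9, with 3 at an unadjusted p below 0.05, and DESeq2 0 of the 7 to which it gave an adjusted p, with 1. Of the 9, 3 had log2 fold changes above 0 and 6 below, with a median of -0.22, where all genes had a median of -0.01 and 51.6% lay below 0. In 7 of the 9 the 95% interval of the log2 fold change lay between -1 and 1, which leaves out a doubling or a halving; MMP9 and mmp13a were the exceptions. The smallest log2 fold change of any gene that passed was 0.54 in size.

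**Figure D1:**
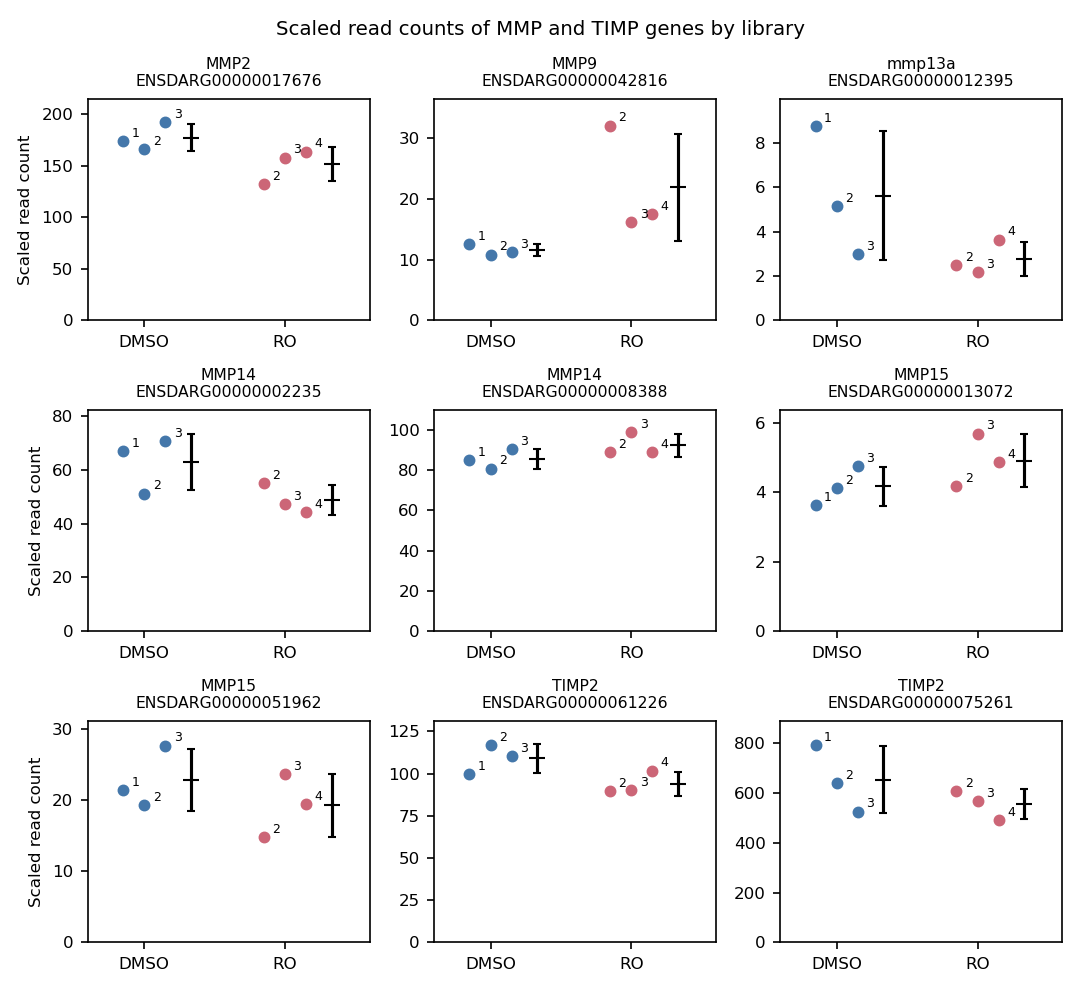
Scaled read counts (vertical axes, from 0) of the 9 MMP and TIMP gene IDs in DMSO (blue) and RO (red) libraries, each point a library labelled with its replicate number. Black marks show the mean and SD of 3 libraries. The 3 RO libraries of MMP9 lie above the 3 DMSO libraries and those of MMP2 below, while the groups overlap for the other 7.

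The gelatinase MMP9 (ENSDARG00000042816), which degrades denatured collagen and basement membrane collagen, had the smallest p of the 9. Its scaled read counts were 12.6, 10.8 and 11.3 in DMSO replicates 1, 2 and 3 and 32.1, 16.2 and 17.5 in RO replicates 2, 3 and 4. Every RO library lay above every DMSO library, and RO replicate 2 stood well above the other RO libraries. The means were 11.6 ± 0.934 in DMSO and 21.9 ± 8.83 in RO (SD, n = 3 per group here and below). The log2 fold change was 0.83 (SE 0.24, 95% interval 0.30 to 1.36), a ratio of 1.77, and did not pass over all genes (adjusted p = 0.152, limma-trend). Between 38 and 115 reads per library stand behind these values. Counting error alone gives a coefficient of variation of 15.1% in DMSO and 10.7% in RO, against 8.05% and 40.2% observed, so the RO libraries differed among themselves by more than counting error. Without RO replicate 2 the log2 fold change was 0.52 (adjusted p = 0.287), and over the 17 alternatives run the adjusted p ranged from 0.0735 to 0.346, always with a higher level in RO.

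Markers of other cells moved with MMP9 in part. The 13 macrophage IDs summed to 766, 888 and 680 in DMSO replicates 1, 2 and 3 and to 1168, 907 and 878 in RO replicates 2, 3 and 4. RO replicate 2, the highest for MMP9, had the highest macrophage sum, while RO replicate 4 lay below DMSO replicate 2. Only 6 of the 13 IDs were highest of the RO libraries in replicate 2. Among these apoeb had 336, 187 and 178 in RO replicates 2, 3 and 4. Others were highest in RO replicate 3, such as ctss2.1, at 161, 186 and 119, and c1qb, at 77.9, 89.6 and 72.5. Of the 13, 11 had log2 fold changes above 0, with a median of 0.23. In 2 the groups did not overlap, both higher in RO, where 9.32% of all genes did so. The 1 that passed was ctss2.1 (ENSDARG00000074656), a cathepsin S gene, which rose from 77.8 ± 6.89 to 155 ± 34.0 (adjusted p = 0.0208). That call ended without DMSO replicate 2, DMSO replicate 3 or RO replicate 3 (adjusted p up to 0.0946). The 7 neutrophil IDs summed to 114 to 202 in DMSO and 148 to 164 in RO, and none passed or had an unadjusted p below 0.05 with limma-trend, edgeR or DESeq2 (their median log2 fold change was 0.12). No macrophage or neutrophil ID stood at 0 in any library. Sums of other lists were also highest in RO replicate 2 and lay above DMSO in every RO library. The 9 thrombocyte IDs summed to 276, 286 and 305 in DMSO replicates 1, 2 and 3 and to 487, 415 and 336 in RO replicates 2, 3 and 4. The 5 skeletal muscle IDs summed to 1170, 1634 and 1742 in DMSO and to 2826, 1920 and 2258 in RO. Most of that sum came from both ACTA1 IDs and ACTC1, an actin gene that heart muscle also expresses. Of the 5, 3 lay above 0 and 2 below. The scarcer ckmb and TNNI2 lay lower with overlap, at 12.2 ± 2.55 against 8.17 ± 1.78 and 18.0 ± 1.96 against 17.3 ± 2.98. In pooled tissue, more cells of a type and more RNA per cell cannot be told apart, and the part of these cells in the MMP9 values was not tested.

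The genes most like MMP9 over the 6 libraries, among 9585 named genes whose level averaged 5 or more, were LGMN (Pearson r = 0.995), ABRACL (0.994) and TMEM260 (0.993). LGMN (ENSDARG00000039150) encodes legumain, a lysosomal cysteine protease, and stood at 388, 366 and 384 in the DMSO libraries and at 655, 470 and 473 in the RO libraries. Like MMP9, it was highest in RO replicate 2 and did not pass (adjusted p = 0.152). These correlations describe 6 libraries and rank many genes, so high values occur among the top ones by selection.

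MMP2 (ENSDARG00000017676), the other gelatinase and the enzyme that MMP14 activates, lay slightly lower in RO. Its scaled read counts were 173, 166 and 192 in DMSO replicates 1, 2 and 3 and 132, 158 and 164 in RO replicates 2, 3 and 4. The groups did not overlap, but RO replicate 4 lay close to DMSO replicate 2. The means were 177 ± 13.4 and 151 ± 16.6, with a log2 fold change of -0.23 (SE 0.12, 95% interval -0.49 to 0.03; adjusted p = 0.455). MMP9 and MMP2 were the 2 of 9 IDs whose groups did not overlap, 1 in each direction, where 9.32% of all genes did not overlap and were higher and 9.35% lower. Within each library the log2 ratio of MMP9 to MMP2 was -3.78, -3.94 and -4.09 in DMSO replicates 1, 2 and 3 and -2.04, -3.28 and -3.22 in RO replicates 2, 3 and 4. Since MMP9 lay higher and MMP2 lower in every RO library, the ratio had to be higher in each and adds no separate result. The difference was 1.08 on average on the log2 scale, and RO replicate 2 stood apart here too. Taken from the values with nothing added, this ratio is free of library scaling, and its difference was not tested.

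The collagenase mmp13a (ENSDARG00000012395) had the lowest log2 fold change of the 9 IDs and rested on few reads, 9 to 36 per library. Its scaled read counts were 8.75, 5.16 and 2.98 in DMSO replicates 1, 2 and 3 and 2.51, 2.19 and 3.65 in RO replicates 2, 3 and 4. The spread lay mainly within DMSO, and DMSO replicate 3 lay inside the range of RO. The means were 5.63 ± 2.92 and 2.78 ± 0.767, the log2 fold change was -0.81 (SE 0.38, 95% interval -1.64 to 0.02; adjusted p = 0.387), and it was -0.46 without DMSO replicate 1 and -1.16 without DMSO replicate 3. In DMSO the observed coefficient of variation of 51.8% exceeded the 21.3% that counting error gives, whereas in RO the 27.5% observed lay below the 29.7% of counting error.

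DMSO replicate 1, the highest library for mmp13a, also had the highest neutrophil sum. The 7 neutrophil IDs summed to 202, 135 and 114 in DMSO replicates 1, 2 and 3 and to 152, 148 and 164 in RO replicates 2, 3 and 4. Within DMSO the order of the libraries was that of mmp13a. It was so within RO too, but there mmp13a had only 9, 10 and 15 reads in replicates 2, 3 and 4. Its spread in RO lay below counting error, so its order among the RO libraries is not resolved. Of the 7, 6 were highest of the DMSO libraries in replicate 1, among them the granule protease gene npsn (ENSDARG00000010423), at 21.1, 7.48 and 2.38. Not every ID kept the order of the sums in RO. In RO replicates 2, 3 and 4 npsn had 4.75, 11.2 and 11.0 and lyz 7.54, 28.9 and 29.0, both lowest in replicate 2. The most abundant ID of the list, nccrp1, had 86.1, 69.4 and 58.6 in DMSO and 72.1, 61.1 and 72.0 in RO. The interleukin gene il11a (ENSDARG00000037859) had 67.1 in DMSO replicate 1 and 6.81 to 18.8 in the other libraries. Both npsn and il11a were chosen after their values were seen. Since mmp13a is expressed by epidermis in injured zebrafish tissue, the skin list was looked at as well. Its 4 IDs summed to 3292 to 3419 in DMSO and 3322 to 3704 in RO, and DMSO replicate 1 had the lowest sum. Most of that sum was krt8, at 2878.5, 3064 and 2953 in DMSO and 3352, 3386 and 2945 in RO. The sum therefore says little about the scarcer IDs. Of these, krt5 had 5.83, 3.10 and 46.7 in DMSO and 18.7, 4.16 and 0 in RO. TP63 had 9.48, 9.55 and 7.44 in DMSO and 10.6, 7.66 and 12.9 in RO. Neither was lowest in DMSO replicate 1. The part of these cells in the mmp13a values was not tested.

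**Figure D2:**
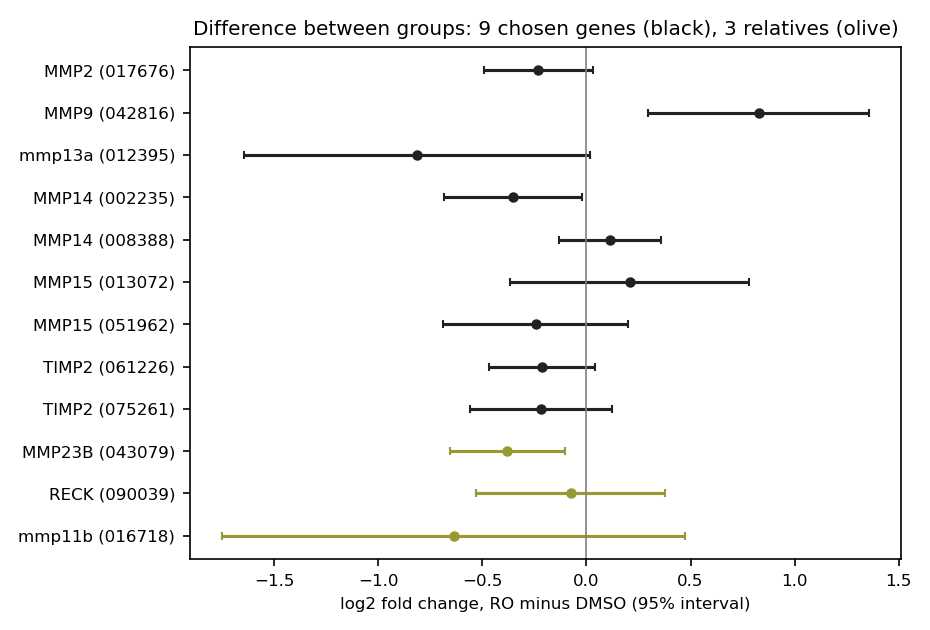
Log2 fold changes, RO minus DMSO (horizontal axis), with 95% intervals from the limma-trend fit, for the 9 MMP and TIMP IDs (black) and 3 related genes (olive), each labelled with its symbol and the last digits of its ID. MMP9 has the highest estimate, at 0.83, and mmp13a the lowest, at -0.81, with the widest interval of the 9.

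The membrane-type enzymes gave differing values within each pair of IDs. MMP14 (ENSDARG00000002235) had 66.9, 51.1 and 70.6 in DMSO replicates 1, 2 and 3 and 55.0, 47.1 and 44.3 in RO replicates 2, 3 and 4. The RO libraries lay lower except that RO replicate 2 was above DMSO replicate 2, and the means were 62.8 ± 10.3 and 48.8 ± 5.57 (log2 fold change -0.35, 95% interval -0.69 to -0.02; adjusted p = 0.336). The other MMP14 (ENSDARG00000008388) had 84.8, 80.8 and 90.5 in DMSO and 89.1, 99.0 and 89.1 in RO. Its groups overlapped around 89 to 91, with means of 85.4 ± 4.88 and 92.4 ± 5.72 (log2 fold change 0.11, 95% interval -0.13 to 0.36; adjusted p = 0.725).

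Within each library the log2 ratio of the first MMP14 ID to the second was -0.34, -0.66 and -0.36 in DMSO replicates 1, 2 and 3 and -0.70, -1.07 and -1.01 in RO replicates 2, 3 and 4. Every RO library had a lower ratio than every DMSO library, by 0.47 on average on the log2 scale, although RO replicate 2 lay close to DMSO replicate 2. The difference in this ratio was not tested, and reads of similar paralogs can be split between copies. Summed over both IDs, MMP14 stood at 148 ± 14.9 in DMSO and 141 ± 6.85 in RO, a difference smaller than the spread between the DMSO libraries.

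MMP15, a membrane-type enzyme related to MMP14, had 15 to 108 reads per library. MMP15 (ENSDARG00000051962) had 21.4, 19.4 and 27.7 in DMSO and 14.8, 23.7 and 19.5 in RO (log2 fold change -0.24, 95% interval -0.69 to 0.20; adjusted p = 0.665). MMP15 (ENSDARG00000013072) rested on 15 to 26 reads per library and had 3.65, 4.13 and 4.76 in DMSO and 4.19, 5.69 and 4.87 in RO (log2 fold change 0.21, 95% interval -0.37 to 0.78; adjusted p = 0.795). Groups overlapped for both IDs. The log2 ratio of ENSDARG00000013072 to ENSDARG00000051962 was -2.55, -2.23 and -2.54 in DMSO and -1.82, -2.05 and -2.0 in RO, higher in every RO library, on counts so low for the first ID that counting error alone gives a coefficient of variation of 25.3% in DMSO and 22.2% in RO.

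TIMP2, the inhibitor that also takes part in activating MMP2, took the most reads of the 9 IDs, and neither of its IDs passed. TIMP2 (ENSDARG00000075261), with 1761 to 3259 reads per library, had 792, 638 and 524 in DMSO replicates 1, 2 and 3 and 607, 567 and 490 in RO replicates 2, 3 and 4. DMSO replicates 1 and 2 lay above all RO libraries, and DMSO replicate 3 lay within the RO range. The means were 652 ± 135 and 555 ± 59.8 (log2 fold change -0.22, 95% interval -0.56 to 0.12; adjusted p = 0.608). In DMSO the observed coefficient of variation was 20.6%, against 2.001% from counting error, so the DMSO libraries of this abundant gene differed by more than read counting gives. Without DMSO replicate 1 its log2 fold change was -0.07. TIMP2 (ENSDARG00000061226) had 99.7, 117 and 110 in DMSO and 89.7, 90.0 and 102 in RO (109 ± 8.71 against 93.8 ± 6.87; log2 fold change -0.22, 95% interval -0.47 to 0.04; adjusted p = 0.475). Here RO replicate 4 alone reached into the DMSO range. The ratio of both TIMP2 IDs to each other was -2.56 ± 0.385 in DMSO and -2.56 ± 0.260 in RO on the log2 scale.

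The genes most like TIMP2 (ENSDARG00000075261) over the 6 libraries were gabpb2a (Pearson r = 0.997), JUNB (0.976) and casp8 (0.975). JUNB (ENSDARG00000074378), a subunit of the transcription factor AP-1, had 196, 159 and 124 in DMSO replicates 1, 2 and 3 and 137, 140 and 107 in RO replicates 2, 3 and 4. Like TIMP2, it was highest in DMSO replicate 1.

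Enzyme and inhibitor levels were also set against each other within libraries, as log2 ratios to the sum of both TIMP2 IDs. The ratio of MMP14, with both IDs summed, was -2.56, -2.52 and -1.98 in DMSO replicates 1, 2 and 3 and -2.27, -2.17 and -2.15 in RO replicates 2, 3 and 4, and that of MMP2 was -2.09 ± 0.330 in DMSO and -2.10 ± 0.274 in RO. Groups overlapped for both. For the 3 genes of the MMP2-activating complex the groups thus did not separate in these ratios. The ratio of MMP9 to TIMP2 was -6.14, -6.12 and -5.81 in DMSO and -4.44, -5.34 and -5.08 in RO, higher in every RO library by 1.07 on average. The ratio of mmp13a to TIMP2 was -7.20 ± 0.532 in DMSO and -7.89 ± 0.484 in RO, with overlap. Gene length shifts the level of each ratio but not the difference between groups, and these differences were not tested.

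**Figure D3:**
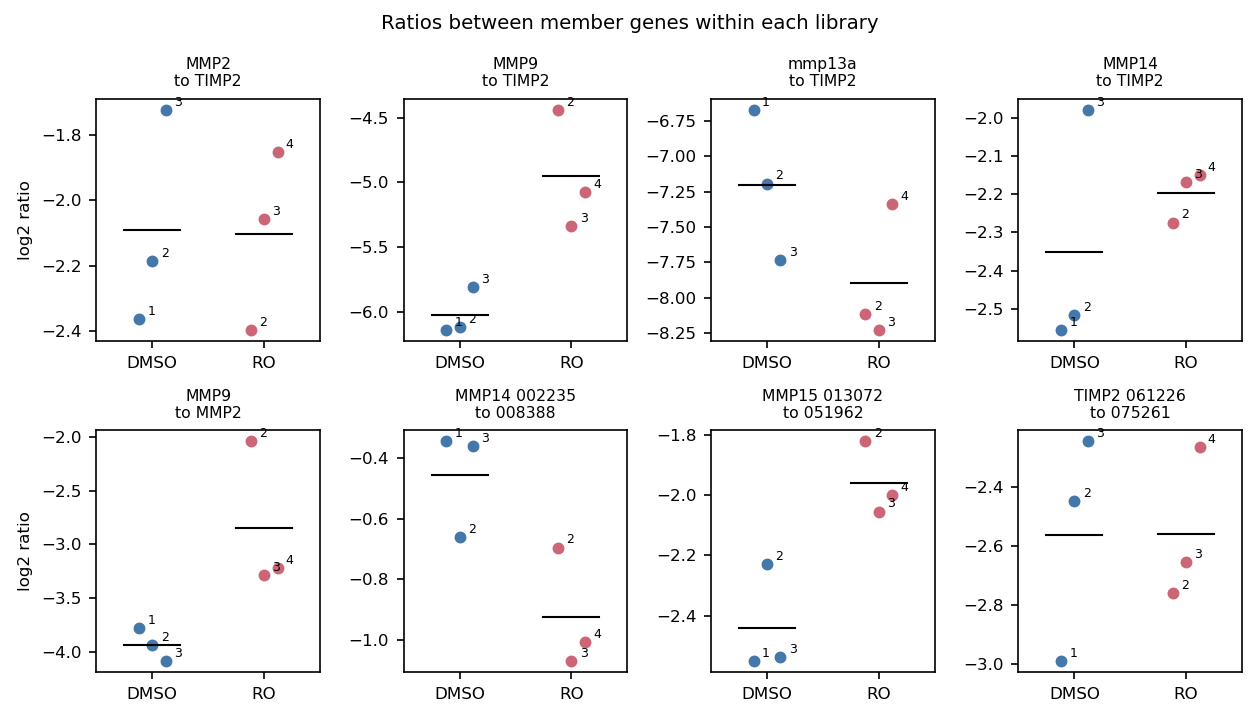
Log2 ratios between MMP and TIMP genes within each library (vertical axes, scales differ and do not start at 0), with DMSO in blue, RO in red, replicate numbers beside the points and the mean of 3 libraries as a line. In the top row TIMP2 and MMP14 are sums of both IDs; the bottom row holds MMP9 to MMP2 and the ratios within the MMP14, MMP15 and TIMP2 pairs. The ratios of MMP9 to TIMP2 and to MMP2 and those within the MMP14 and MMP15 pairs do not overlap between groups, while the other 4 do. For MMP9 to MMP2 this follows from the values of both genes. How often ratios of other gene pairs do so was not tested.

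Among relatives outside the 10 names, 3 were measured, all with log2 fold changes below 0, and none passed with limma-trend, edgeR or DESeq2 (1 at an unadjusted p below 0.05 in each). MMP23B (ENSDARG00000043079), a small membrane-bound MMP, had 72.7, 78.7 and 64.0 in DMSO and 51.4, 54.3 and 59.1 in RO. Its groups did not overlap (71.8 ± 7.39 against 54.9 ± 3.91, log2 fold change -0.38; adjusted p = 0.204). RECK, a membrane-anchored MMP inhibitor, stood at 14.5 ± 1.205 against 14.0 ± 3.42 (adjusted p = 0.918), and mmp11b, named after its values were seen, at 3.02 ± 1.99 against 1.64 ± 0.909 (adjusted p = 0.650).

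Genes that activate or accompany MMPs were measured through 11 IDs of the plasminogen system, proprotein convertases and cathepsins. None passed (limma-trend; 2 at an unadjusted p below 0.05), nor with edgeR or DESeq2 (3 at an unadjusted p below 0.05 in each), 6 lay above 0 and 5 below, and their median log2 fold change was 0.0075. The most abundant were BSG, an inducer of MMPs also called CD147, at 733 ± 88.7 against 640 ± 29.8 (adjusted p = 0.554), and the cathepsin L gene ctsla, at 500 ± 20.5 against 647 ± 110 (adjusted p = 0.279). The collagen-degrading cathepsin gene CTSK, chosen after its values were seen, stood at 251 ± 16.4 against 340 ± 42.6 (adjusted p = 0.141). The urokinase gene plaua, chosen in the same way, stood at 17.1 ± 4.45 against 25.9 ± 8.93, with overlap (adjusted p = 0.394).

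Of 20 IDs of ADAM, ADAMTS and astacin-type proteases none passed with limma-trend, edgeR or DESeq2 (2 at an unadjusted p below 0.05 in each), 7 lay above 0 and 13 below, and the median was -0.12. The sheddase gene adam10a and adam8a were the most abundant, with log2 fold changes of -0.05 and 0.0023 (adjusted p = 0.907 and 0.997). ADAMTS15 (ENSDARG00000029124), a proteoglycan-cutting enzyme named after its values were seen, had 48.9, 41.8 and 50.9 in DMSO and 27.1, 35.7 and 27.3 in RO. Its groups did not overlap (log2 fold change -0.65, adjusted p = 0.0790). The scarcer other ADAMTS15 ID (ENSDARG00000033544) overlapped between groups (log2 fold change -0.36, adjusted p = 0.745). ADAM15, also named after its values were seen, lay higher in every RO library, at 13.9 ± 4.52 against 22.8 ± 7.23 (log2 fold change 0.70; adjusted p = 0.283). RO replicates 2 and 4, at 18.4 and 18.7, lay close to DMSO replicate 1, at 18.0, and RO replicate 3 had 31.1.

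The matrix proteins that these enzymes cut lay mostly lower in RO, with 18 of 24 IDs below 0 and a median log2 fold change of -0.27. At an unadjusted p below 0.05 there were 12 of the 24 (limma-trend). A single ID passed, and it rose: vcanb (ENSDARG00000009401), the proteoglycan versican, at 34.3 ± 6.30 against 89.2 ± 7.31 (adjusted p = 0.00262). No ID of the list fell at the threshold with limma-trend or edgeR, whereas DESeq2 called 7, vcanb and 6 that fell. All 11 collagen chain IDs had log2 fold changes below 0, from -0.60 to -0.02. In 8 the groups did not overlap, all lower in RO, where 9.35% of all genes did so. None of the 11 passed with limma-trend or edgeR (9 at an unadjusted p below 0.05 in each), whereas DESeq2 called 5, all lower: col1a1a, COL1A1, COL1A2 and both COL12A1 IDs. Of all 14211 genes, 13.4% had an unadjusted p below 0.05 with limma-trend, and DESeq2 called 240. The other ID that fell with DESeq2 was SPARC, a collagen-binding matrix protein, at 475 ± 31.8 against 343 ± 49.7 (adjusted p = 0.0405 with DESeq2 and 0.113 with limma). Among the collagens COL12A1 (ENSDARG00000019601), a collagen that associates with fibrils and was chosen after its values were seen, had 411, 321 and 352 in DMSO and 257, 257 and 202 in RO (adjusted p = 0.0716). The list of fibroblast and epicardium markers, which includes some of the same genes, summed to 7815 to 10151 in DMSO and 8164 to 9543 in RO, with 0 of 18 IDs passing (limma-trend; 7 at an unadjusted p below 0.05; edgeR 0, DESeq2 COL1A2) and a median of -0.17. Its most abundant genes were ANXA2 (adjusted p = 0.744) and FN1 (ENSDARG00000019815; adjusted p = 0.898). The part of fibroblast number in these values was not tested.

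**Figure D4:**
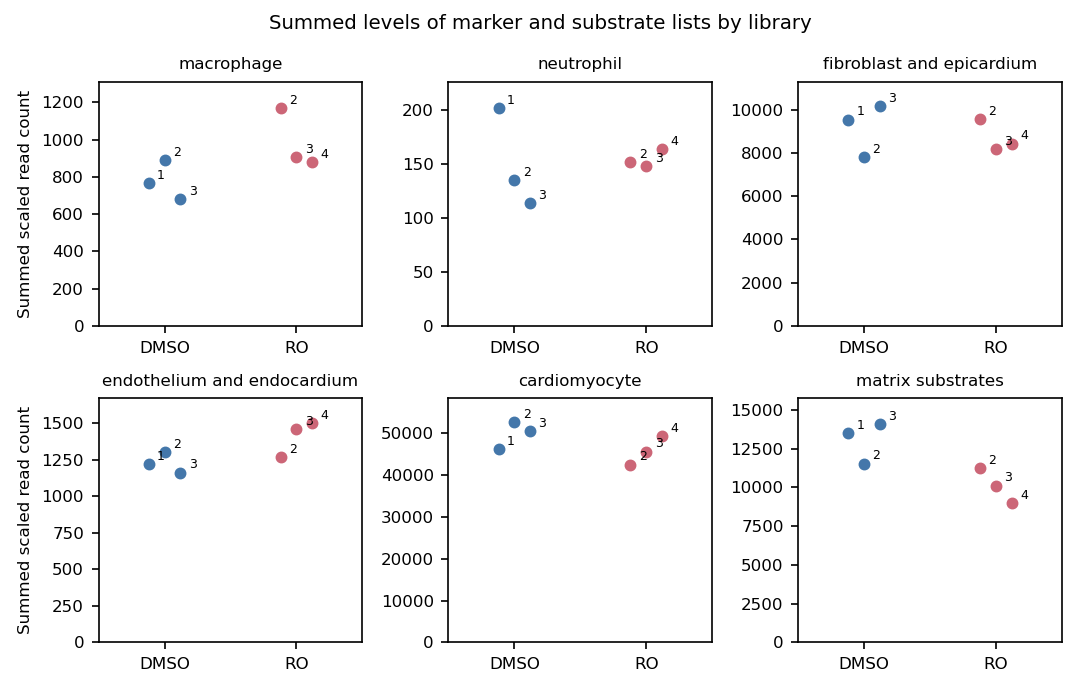
Summed scaled read counts (vertical axes, from 0) of marker and substrate lists in each library, with DMSO in blue, RO in red and replicate numbers beside the points. The matrix substrate sum is lower in every RO library, with a highest value of 11272 against a lowest of 11539 in DMSO, and the macrophage sum is highest in RO replicate 2.

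Of 23 IDs of cytokines and transcription factors known to act on MMP genes, 11 lay above 0 and 12 below, with a median of -0.06. At an unadjusted p below 0.05 there were 9 with limma-trend, edgeR or DESeq2 each, where 13.4% of all genes were with limma-trend. With limma-trend 1 ID passed the threshold. It was egr1 (ENSDARG00000037421), an immediate early transcription factor, which fell from 120 ± 17.3 to 47.5 ± 22.6 (adjusted p = 0.0360). Its call ended without any of the 3 DMSO libraries or without RO replicate 2 (adjusted p up to 0.121), and with robust empirical Bayes. The AP-1 gene FOS (ENSDARG00000031683), named after its values were seen, had 119, 112 and 82.5 in DMSO and 69.5, 65.5 and 31.9 in RO (adjusted p = 0.120), and DESeq2 called it. The cytokine gene tnfb, a tumour necrosis factor named after its values were seen, lay the other way, at 3.11 ± 0.928 against 8.04 ± 0.49998. Its log2 fold change was 1.28 (adjusted p = 0.0567), and it passed with robust empirical Bayes (adjusted p = 0.0459). It rested on few reads, with 3.89, 3.36 and 2.08 in DMSO, where the value of 1 read was 0.219 to 0.298. Groups did not overlap for 5 IDs that were higher and 3 that were lower in RO, where 9.32% of all genes did so higher and 9.35% lower.

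Of the 54 IDs in 6 marker lists of other cells, 5 passed, all higher in RO. That is 9.26%, against 1.03% of all genes. The lists were chosen with earlier results of these data known, so this contrast is a description and not a test. The 6 lists leave out the macrophage, neutrophil and fibroblast lists, and over all lists 8 of 167 IDs passed. The 14 endothelial and endocardial IDs had a median of 0.17 and 2 that rose, the vessel diaphragm gene plvapb (adjusted p = 0.0302) and flt1, which encodes a receptor for VEGF (adjusted p = 0.0356), calls that ended for plvapb without DMSO replicate 1 or 2 or RO replicate 3 or 4, and for flt1 without any library but DMSO replicate 1 and with quantile normalization. The endothelial junction gene CLDN5 (ENSDARG00000014059) passed with edgeR and DESeq2 (adjusted p = 0.0463 and 0.000535) and not with limma (adjusted p = 0.0607). The other CLDN5 ID (ENSDARG00000043716) overlapped between groups and did not pass (log2 fold change 0.03, adjusted p = 0.974). Within this list 10 IDs lay above 0 and 4 below. Groups did not overlap for 5 that were higher and 1 that was lower in RO, where 9.32% and 9.35% of all genes did so. The lower 1 was TIE1, at 114 ± 7.81 against 94.1 ± 9.20 (log2 fold change -0.28, adjusted p = 0.331). The others below 0 were cdh5, tek and NFATC1, at -0.13, -0.04 and -0.01, with overlap. KDR lay above 0 with overlap (log2 fold change 0.13, adjusted p = 0.859). Of the 9 thrombocyte IDs 8 lay above 0, with a median of 0.47, and 5 had an unadjusted p below 0.05 (limma-trend). In 4 the groups did not overlap, all higher, where 9.32% of all genes did so. FERMT3 (ENSDARG00000030938), an integrin activator of blood cells, rose (adjusted p = 0.0468), a call that ended without any library but RO replicate 4. The other FERMT3 ID (ENSDARG00000079267) overlapped between groups and did not pass (log2 fold change 0.36, adjusted p = 0.532). DESeq2 also called the platelet receptor genes itga2b and GP1BB (adjusted p = 0.00798 and 0.0216; limma 0.124 and 0.0915). The cardiomyocyte median was -0.12, with MYH6 (ENSDARG00000079564) higher (adjusted p = 0.0454), a call that ended without any library but RO replicate 2 and with quantile normalization. The other ID of that symbol, myh6 (ENSDARG00000090637), had 9.72, 60.4 and 3.27 in DMSO and 44.4, 1.31 and 107 in RO. Its groups overlapped and it did not pass (adjusted p = 0.887). Of 5 skeletal muscle IDs 4 had an unadjusted p below 0.05 (limma-trend), of which ckmb lay lower. ACTC1, which heart muscle also expresses, rose (adjusted p = 0.0139), though not without DMSO replicate 1 or 2. DESeq2 also called ACTA1 (ENSDARG00000036371, adjusted p = 0.00515, limma 0.117). The other ACTA1 ID (ENSDARG00000055618) overlapped between groups and did not pass (log2 fold change 0.46, adjusted p = 0.322). No erythrocyte ID passed (limma-trend; 0 of 6 at an unadjusted p below 0.05), with hbaa1 and alas2 the most abundant, and no skin ID (limma-trend; 0 of 4 at an unadjusted p below 0.05), by edgeR and DESeq2 neither, with krt8 and krt4 the most abundant. The most abundant IDs of the neutrophil list, nccrp1 and lyz, had log2 fold changes of -0.05 and 0.16 (adjusted p = 0.931 and 0.924).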

How the data were processed

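The authors deposited 1 table of a scaled signal per gene and library. Per the submitters' processing notes the build was Zv9 and the tools included RSEM 1.2.3, Bowtie2 2.0.6, edgeR, cutadapt 1.6.1 and CASAVA 1.8, with no role stated. No source used here gives the annotation release or the use of strand, so overlapping or antisense genes were not told apart. All values in each library (100%) were whole multiples, within 0.01 read, of the value of 1 read (0.219 to 0.298), and the reads recovered from the deposited signal were used for edgeR 4.0.16 and DESeq2 1.42.0 as alternatives. Counting errors given cover read counting only.

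Values were tested as log2(value + 0.5) for RO minus DMSO with limma 3.58.1 (limma-trend, R 4.3.3), two-sided, with Benjamini-Hochberg adjustment over all 14211 genes and a threshold of 0.05. Adjusted p-values come from limma except where edgeR or DESeq2 is named, and fold changes understate those of low genes. Ratios within libraries were taken with nothing added. The minimum of 1 in 3 libraries removed no gene. The script was tested on simulated data. Libraries of a group differed by a chi-square per degree of freedom of 5.01 to 11.7, so none repeated another. Nothing in the labels says that hearts of different libraries came from separate experiments, so p-values measure the spread between pools.

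Symbols came from a table pairing IDs with symbols (11589 of 14211 IDs), often in human form. No coordinates or sequences are given. The members and the 14 lists, with 257 symbols, of which 169 were matched (117 by symbol, 21 by synonym and 31 by paralog stem, giving 167 IDs), were chosen with earlier results of these data known. Named were all members and, per list, up to 4 IDs that passed or else the 2 most abundant. For the members with the smallest p and the highest level, the 3 genes with the highest correlation were named. 1 gene of the lists was left out and is not reported here. All other genes named were chosen after their values were seen.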

Additional observations from a re-analysis of the deposited data

How the results depend on the processing

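None of the 9 MMP and TIMP IDs passed under any of the 17 alternatives, and all but TIMP2 (ENSDARG00000075261) kept their direction in each alternative that gave a value. With the replicate number as a block, TIMP2 (ENSDARG00000075261) stood at 0.021 (adjusted p = 0.949). Numbers 1 and 4 occur in 1 library each, so that fit takes the difference from replicates 2 and 3 of each group. Numbers 2 and 3 occur in both groups and may or may not mark a pairing, which was not tested. Correlations of deviations were 0.116 and 0.091 for the libraries that share a number. For the other pairs of a DMSO and an RO library they ran from -0.116 to 0.043. DESeq2 gave no adjusted p to mmp13a and MMP15 (ENSDARG00000013072), and a minimum mean of 5 left both out. The count of all genes that passed, 147, was 1 without the mean-variance trend, 405 with the replicate block, 240 with DESeq2 and 22 to 105 with a library left out. Leaving out DMSO replicate 1 gave 59, DMSO replicate 2 gave 22, RO replicate 2 gave 95 and RO replicate 3 gave 48. For the 167 IDs of the lists, 8 passed, and 0, 18 and 19 did without the trend, with the block and with DESeq2, and 1 to 8 with a library left out.

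The block left the difference to replicates 2 and 3 of each group. With the block, ctsla, CTSK, plaua, ADAM15, CLDN5 (ENSDARG00000014059) and itga2b passed (adjusted p = 0.0413, 0.0476, 0.0238, 0.0271, 0.00319 and 0.0108), and the call of MYH6 ended. SPARC passed without RO replicate 2 (adjusted p = 0.0496) and CLDN5 without RO replicate 4 (0.00801). The block turned nccrp1 to 0.056, FN1 to 0.124, hbaa1 to -0.0023 alas2 to 0.352 and il11a to 0.851, edgeR and DESeq2 turned npsn to -0.223 and -0.204, and quantile normalization turned adam8a to -0.040 and krt8 to -0.030 (log2 fold changes). With a library left out the sign was not stable for at least 11 list genes named, with ranges of -0.184 to 0.139 for RECK, -0.118 to 0.041 for adam10a, -0.155 to 0.151 for adam8a, -0.180 to 0.095 for nccrp1, -0.149 to 0.788 for lyz, -0.013 to 0.327 for ANXA2, -0.301 to 0.073 for FN1, -0.209 to 0.473 for hbaa1, -0.464 to 0.475 for alas2, -0.565 to 0.889 for npsn and -1.03 to 0.489 for il11a. The cause was not tested. Among the 9 MMP and TIMP IDs depth limits mmp13a and MMP15 (ENSDARG00000013072), with 9 to 36 reads per library, most. The list gene mmp11b rested on fewer, 3 to 20 reads per library.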
